A study of Mus musculus with 20 samples.

Results

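Neurotransmitter receptor genes were read out in mesenchymal cells of the mouse gut. The genes were taken by symbol, as every gene of the AMPA (*Gria*), kainate (*Grik*), NMDA (*Grin*) and metabotropic (*Grm*) glutamate receptors, the GABA-A (*Gabr*), glycine (*Glra*), nicotinic (*Chrna*, *Chrnb*) and muscarinic (*Chrm*) acetylcholine receptors and the serotonin receptors (*Htr*), and this gave 79 of the 43280 gene symbols in the count tables. They comprised 19 GABA-A, 14 serotonin, 13 nicotinic, 8 metabotropic glutamate, 7 NMDA, 5 kainate, 5 muscarinic, 4 AMPA and 4 glycine receptor genes. RNA-seq covered 8 libraries of E13.5 embryos, 2 for each of the control stomach, control intestine, *Eed* KO stomach and *Eed* KO intestine, and 4 libraries of adult small intestine, 2 control and 2 labelled *Eed* KO. ATAC-seq, which maps accessible chromatin, covered the 4 embryonic conditions with 1 peak list each. The labels give the strain of the embryos as C57BL/6, whereas the study's methods give mixed backgrounds for the floxed *Eed* and Rosa26mTmG alleles. *Eed* encodes a core subunit of the Polycomb repressive complex PRC2, which deposits the repressive histone mark H3K27me3. Embryonic controls were Bapx1-cre;Rosa26mTmG and embryonic mutants Eedfl/fl;Bapx1-cre;Rosa26mTmG, and in both the reporter turns GFP on in cells in which the Cre has acted, and in their descendants, so that sorted GFP+ cells are the Bapx1 lineage of the gut wall and not the whole organ. Adult cells were GFP+ cells sorted from the small intestine of tamoxifen-treated mice of about 10 weeks, in which *Pdgfrb*, a gene of pericytes and other mesenchymal cells, drives the CreERT2 in both genotypes. The labels give the adult genotypes only as WT and EED-KO.

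Glutamate, GABA-A, glycine and nicotinic receptors are mostly ion channels built from several subunits, each from its own gene, so that the subunits present set how a cell responds. Metabotropic glutamate, muscarinic and nearly all serotonin receptors are instead G protein-coupled receptors, and the serotonin receptors of the *Htr3* group are channels. In the gut, acetylcholine and serotonin are transmitters of the enteric nervous system, and muscarinic receptors of smooth muscle drive contraction.

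Depth was 30236159 to 39606157 gene counts in the embryonic and 11404712 to 15903642 in the adult libraries, and a count of 0 allowed up to 0.0992 CPM (counts scaled to library size by TMM, used for all levels unless TPM, which is per transcript length, is named) in the shallowest embryonic and up to 0.263 CPM in the shallowest adult library, a limit that covers counting error only. *Eed*, the targeted gene, was at 40.0 and 41.5 CPM in the control stomach against 11.4 and 7.40 in the *Eed* KO stomach, and at 38.1 and 40.1 in the control intestine against 10.7 and 8.58 in the mutant intestine. In the adult it was at 29.6 and 33.4 CPM in the controls and 25.6 and 25.01 in the libraries labelled *Eed* KO, a log2 fold change of -0.32 ± 0.21 (SE, adjusted p = 0.32). The adult label was thus not borne out by the whole-gene count, which could also miss the loss of a small part of the transcript. The study itself shows a deletion efficiency of *Eed* in isolated adult pericryptal cells, those beside the crypts, which was not compared here. Gut mesenchyme markers were all at 1 CPM or more in the embryonic groups, with a summed level of 10880 to 18910 CPM, and leukocyte markers were at most at 1.502 CPM in sum. Genes on the Y chromosome were found in all embryonic control libraries and in replicate 1 of the *Eed* KO stomach and intestine, at 62.1 CPM or more over 4 genes. They were at 0.0548 CPM or less in replicate 2 of the *Eed* KO stomach and intestine and at 0.1002 CPM or less in all adult libraries. *Xist*, an X-linked gene expressed in female cells, was at 36.6 to 125.7 CPM in the embryonic control libraries, which thus held both. In the *Eed* KO stomach and intestine it was at 0.0791 CPM or less in replicate 1 and at 52.2 and 56.1 CPM in replicate 2. In the adult libraries it was at 52.9 CPM or more.

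Receptor transcripts were dominated by few genes. At a group mean of at least 1 CPM, 31 of the 79 genes were found in the control stomach, 40 in the *Eed* KO stomach, 24 in the control intestine and 33 in the *Eed* KO intestine, but 8 in the adult control and 9 in the adult libraries labelled *Eed* KO. *Chrm2* (chr6:36388084-36528414, plus strand, GRCm38), the muscarinic receptor that slows the heart and is abundant in gut smooth muscle, held 27.0% of all receptor counts in the control stomach and 48.4% in the control intestine. Its 2 libraries were at 154 and 154 CPM in the control stomach, 145.8 and 139.8 in the mutant stomach, 226 and 179 in the control intestine, with the mutant intestine at 188 and 248. The groups of the 2 genotypes overlapped in the intestine, and *Chrm2* passed the threshold in no comparison of the embryo. In the adult it had 7 and 0 counts in the controls and 2 and 3 in the libraries labelled *Eed* KO, so the most counted receptor gene of the embryo was near the limit of detection there. The adult libraries differ from the embryonic ones in age, Cre driver and library kit together, which cannot be told apart, and no test was made between them.

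Per length, in TPM, the AMPA, kainate, muscarinic, serotonin and glycine families each had the same leading gene in all 4 embryonic groups. In the other families the leading gene varied. *Grik5*, which encodes an auxiliary high-affinity kainate subunit, was at 49.7 ± 0.686 TPM (SD, n = 2 libraries) in the control stomach and 43.9 ± 5.68 in the control intestine, and no other kainate subunit exceeded 4.38 TPM on average. *Gria3* led the AMPA subunits at 19.8 ± 0.0864 TPM in the control stomach and 12.2 ± 1.21 in the control intestine, followed by *Gria4* at 13.1 ± 2.52 and 4.80 ± 0.748. *Chrm3*, the muscarinic receptor that couples to contraction and secretion, followed *Chrm2* in each embryonic group, with 21.2 ± 1.23 TPM against 77.3 ± 0.369 in the control stomach and 14.8 ± 0.376 against 100.1 ± 14.2 in the control intestine. *Htr1b* led the serotonin receptors, at 12.9 ± 2.56 TPM in the control stomach and 1.80 ± 0.460 in the control intestine, with *Htr2a* second at 0.984 ± 0.00638 and 1.21 ± 0.299. The GABA-A alpha subunit gene *Gabra4* was at 16.9 ± 0.575 TPM in the control stomach, and *Gabra3* at 7.11 ± 0.391 TPM in the control intestine and 11.6 ± 0.112 in the *Eed* KO intestine. *Chrna5* led the nicotinic genes except in the *Eed* KO stomach, where *Chrna4* stood at 8.46 ± 1.80 TPM and *Chrna5* at 6.90 ± 0.439, and *Chrnb1* was second in the control stomach and *Chrna7* second in the intestine of both genotypes. Of the NMDA genes *Grin3a* and *Grin2d* led in every embryonic group, and of the metabotropic genes *Grm3* and *Grm7* led in the stomach and *Grm8* and *Grm7* in the intestine. The glycine receptor genes were the lowest family, with a summed level of at most 0.137 CPM in any embryonic library, and *Glra2* the highest of them. *Glra1*, *Glra4*, *Chrna6* and *Gabrr3* had no count in any of the 8 embryonic libraries, and each of the 79 genes had a count in at least 1 of the 12 libraries.

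**Figure D1:**
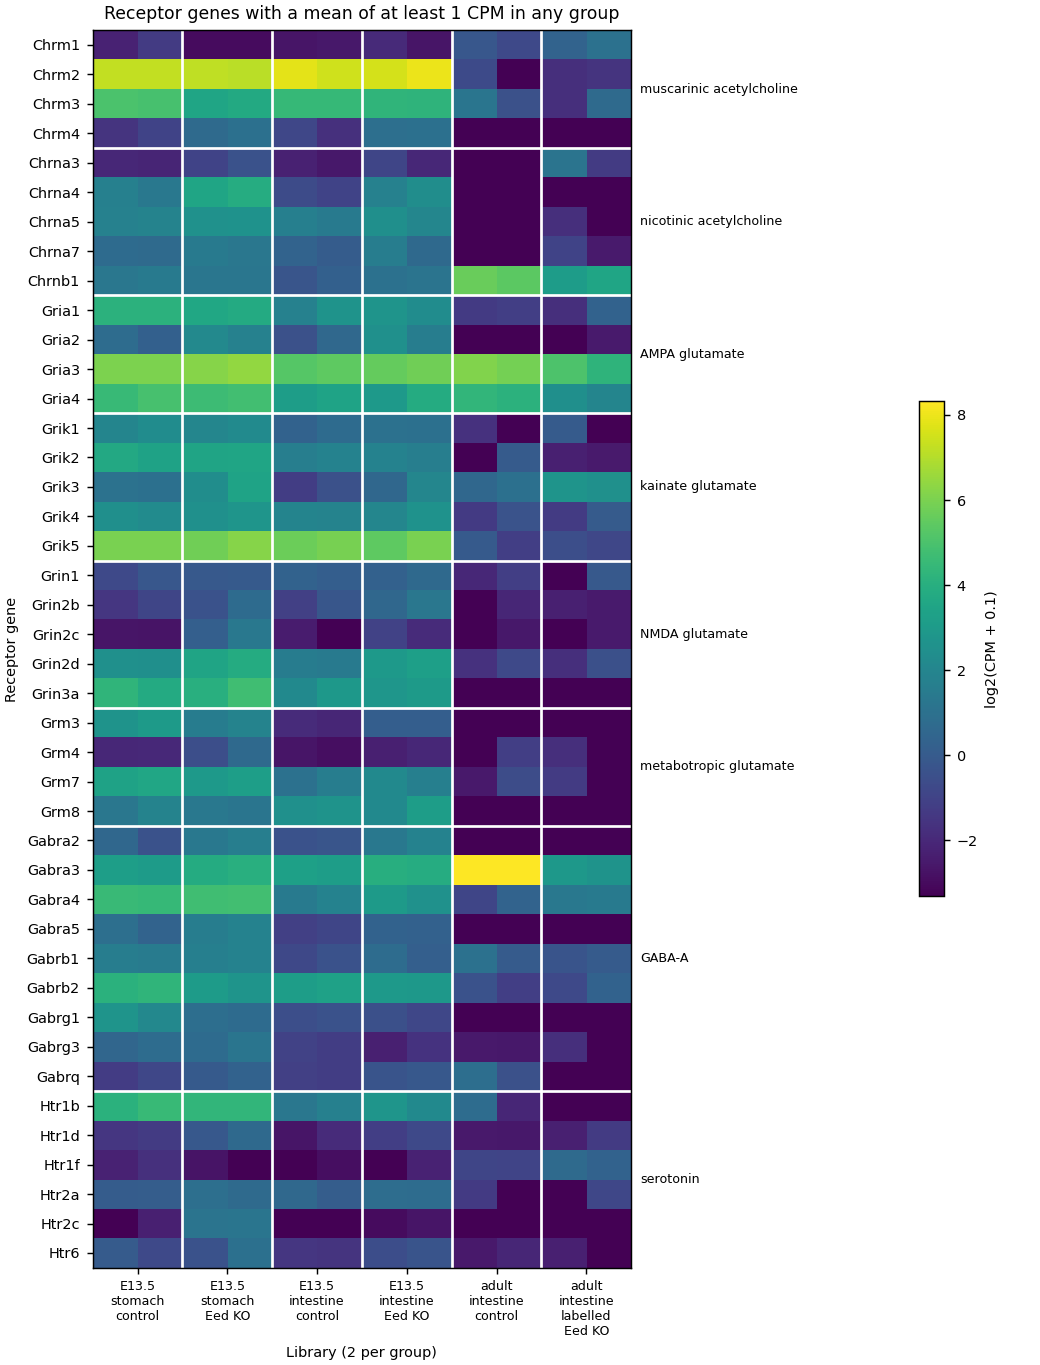
Level of 42 receptor genes with a mean of at least 1 CPM in any group, as log2(CPM + 0.1), with a column for each of the 12 libraries and a row for each gene, ordered by receptor family. *Chrm2* is the highest row in the embryonic columns and near the bottom of the scale in the adult ones, and *Gabra3* is highest in the 2 adult control columns.

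The stomach expressed a wider set of receptor genes than the intestine. Of the 51 receptor genes that passed the filter on low counts of edgeR in the embryonic libraries, 16 were higher in the control stomach than in the control intestine (31.4%), against 3.39% of all 16218 genes tested, and 0 were higher in the control intestine, against 1.68% of all genes. A gene passed where its adjusted p was below 0.05 and its log2 fold change exceeded 1 in size. At an unadjusted p under 0.05, 28 of the 51 differed, against 17.6% of all genes. The 0 higher in the control intestine held with DESeq2 too, beside 327 of all genes. The median log2 fold change, intestine minus stomach, was -1.17 over the 51 genes and 0.00 over all genes tested, and it was -1.06 with the 1 gene that had no counts in a group set at its bound of 3 counts. The 28 genes that did not pass the filter had at most 21 counts in any embryonic library (*Htr3a*).

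GABA-A subunit genes made up 6 of these 16, out of 12 tested. *Gabra4* (chr5:71569734-71658308, minus strand), an alpha subunit, was at 23.5 and 22.5 CPM in the control stomach and 2.56 and 3.50 in the control intestine, a log2 fold change of -2.93 ± 0.21 (SE, adjusted p = 0.00046). *Gabrg1*, a gamma subunit, was at 6.46 and 4.26 CPM in the control stomach and 0.590 and 0.673 in the control intestine (-3.08 ± 0.31, adjusted p = 0.0014). Both genes had stomach libraries far above the intestine libraries, with no overlap. The beta subunit gene *Gabrb1* was lower in the intestine with a log2 fold change of -2.30 ± 0.30, and so were *Gabra5* and *Gabrg3* with -1.89 ± 0.32 and -2.0 ± 0.38.

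Glutamate receptor genes made up a further 7 of the 16. *Grm3*, a presynaptic and glial receptor coupled to inhibitory G proteins, had the largest organ difference of all receptor genes tested. Its libraries held 215 and 314 counts in the control stomach, or 6.23 and 8.003 CPM, and 6 and 4 counts in the control intestine, or 0.168 and 0.135 CPM, a log2 fold change of -5.51 ± 0.31 (adjusted p = 0.00023). *Grm7*, another receptor of this kind, was at 10.4 and 11.6 CPM in the control stomach and 1.91 and 2.93 in the control intestine (-2.19 ± 0.26). Of the channels, the AMPA subunits *Gria1* and *Gria4* (-1.92 ± 0.27 and -1.43 ± 0.29), the kainate subunits *Grik1* and *Grik2* (-1.68 ± 0.25 and -1.83 ± 0.17) and the NMDA subunit *Grin3a* (-1.50 ± 0.33) were lower in the intestine. The highest genes of these families, *Gria3* at 64.4 and 64.3 CPM against 38.1 and 42.4, and *Grik5* at 62.0 and 63.5 against 51.9 and 60.4, did not pass, *Gria3* because its log2 fold change of -0.68 ± 0.12 was under the size asked (adjusted p = 0.017). *Grin3a* shares its strand and span with *Ppp3r2*, which had 54 counts in all embryonic libraries against 3729 for *Grin3a*.

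The other 3 were *Htr1b*, a serotonin receptor coupled to inhibitory G proteins, and the nicotinic subunits *Chrna4* and *Chrnb1*. *Htr1b* was at 17.3 and 23.0 CPM in the control stomach and 2.36 and 3.30 in the control intestine (-2.84 ± 0.25, adjusted p = 0.00098). *Chrna4*, the main alpha subunit of brain nicotinic receptors, was at 3.22 and 2.40 CPM in the control stomach and 0.534 and 0.404 in the control intestine (-2.56 ± 0.33). *Chrnb1*, the beta subunit of the muscle receptor, was at 2.32 and 2.57 CPM in the control stomach and 0.730 and 1.08 in the control intestine (-1.44 ± 0.26). None of the 4 muscarinic genes tested passed. Without replicate 1 of the control intestine fewer receptor genes were lower in the intestine, and fewer of all genes. The median log2 fold change of the 51 was then -1.09. With scaling by spike-in totals, under which the all-gene median was 0.30, 1 receptor gene was lower, beside 85 of all genes.

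Markers of other cell types also differed between the control organs. The 15 markers of enteric neural crest, neurons and glia summed to 91.3 and 94.1 CPM in the control stomach and 216 and 205 in the control intestine. *Ednrb* alone was at 49.0 and 57.6 CPM in the control stomach and 201 and 188 in the control intestine, so it held most of these sums. Of the 14 tested, 2 were lower in the intestine (*Uchl1* at -1.88 ± 0.22 and *Stmn2* at -1.87 ± 0.36) and 1 higher (*Ednrb* at 1.87 ± 0.27). The median log2 fold change of the 14 was -0.56. Of the skeletal muscle markers *Myf5* was lower in the intestine (-3.81 ± 0.74), with the whole list at 1.01 CPM or less in sum. *Epcam* and *Wt1* were also lower in the intestine, at -1.83 ± 0.20 and -1.04 ± 0.19, and *Pecam1* and *Cdh5* of the endothelium higher, at 2.51 ± 0.42 and 1.80 ± 0.42. *Des* of smooth muscle, *Etv1* of interstitial cells of Cajal and *Rgs5* of pericytes were higher in the intestine, at 1.18 ± 0.19, 1.03 ± 0.13 and 1.09 ± 0.25. The part of these cells in the receptor differences was not tested, and in bulk samples fewer cells of a type and less RNA per cell cannot be told apart.

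Partner genes of the receptors were taken from fixed lists. Of the 26 tested genes for scaffold and auxiliary proteins, 2 were lower in the intestine, the kainate receptor partner *Neto1* (-2.77 ± 0.48) and the scaffold *Homer2* (-1.41 ± 0.17). Of 13 tested genes for transmitter uptake and breakdown 4 were lower, the GABA transporter *Slc6a11* (-5.53 ± 1.00, at 0.464 and 1.25 CPM in the stomach and 0.0281 and 0 in the intestine), the cholinesterase *Bche* (-1.92 ± 0.18, at 69.97 and 90.2 CPM in the stomach), the glutamate transporter *Slc1a2* (-1.49 ± 0.21) and the monoamine oxidase *Maob* (-1.14 ± 0.25). Of 6 tested genes for transmitter synthesis and vesicle loading the choline transporter *Slc5a7* was lower (-2.57 ± 0.57), and of 5 receptor genes outside the named families the delta glutamate receptor *Grid1* was (-1.83 ± 0.28).

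The organ difference was also found in the *Eed* KO. Of the 51 receptor genes 19 were lower in the *Eed* KO intestine than in the *Eed* KO stomach (37.3%), against 2.94% of all genes, and 1 was higher, against 1.46%. The median log2 fold change was -0.94 over the 51 genes and 0.00 over all. The comparison shares no library with that of the controls, though both came from 1 fit that shares its estimate of the spread. As lower in both, 15 genes passed, which is 15 of the 16 in controls and 15 of the 19 in the *Eed* KO. This overlap was not counted over all genes. *Chrnb1* passed in controls but not in the *Eed* KO, where it was at 2.28 and 2.25 CPM in the stomach and 1.92 and 2.11 in the intestine. Of the 16 genes, *Grm3* passed the interaction threshold for a change of the organ difference between genotypes.

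The 4 genes that passed in the *Eed* KO and not in controls had at most 17 counts in any control library. The change of their organ difference between genotypes did not pass the interaction threshold. *Htr2c*, a serotonin receptor of the brain, had 80 and 79 counts in the *Eed* KO stomach and 1 and 2 in the *Eed* KO intestine, a ratio of 53.7 with a 95% counting interval of 18.0 to 263. *Htr7*, a serotonin receptor that raises cAMP, had 22 and 20 counts against 0 and 2, a ratio of 21.3 with an interval of 5.53 to 181. *Grin2a*, an NMDA subunit, had 29 and 38 counts against 2 and 2 (-3.97 ± 0.47), and *Grm4*, an inhibitory metabotropic receptor, 22 and 53 against 4 and 5 (-3.01 ± 0.57). *Grm8* was the only gene to be higher in the intestine, at 4.56 and 8.81 CPM in the *Eed* KO intestine and 2.44 and 2.22 in the *Eed* KO stomach (1.52 ± 0.34, adjusted p = 0.043), with 5.65 and 6.16 against 2.35 and 3.57 CPM in the controls, where it did not pass. Of the partner lists *Grid1*, *Neto1*, *Slc1a2* and *Bche* were lower in the *Eed* KO intestine (-1.41 ± 0.26, -2.02 ± 0.43, -1.61 ± 0.21 and -1.61 ± 0.17), and the GABA transporter *Slc6a13* was higher (1.30 ± 0.27). Of the marker lists, *Stmn2*, *S100b*, *Wt1* and *Myod1* were lower in the *Eed* KO intestine and *Actg2*, *Des*, *Tagln* and *Cnn1* of smooth muscle higher, and their part was not tested. With 1 library of the *Eed* KO intestine or stomach left out fewer receptor genes were lower in the intestine, and fewer of all genes. The fewest were left without replicate 2 of the stomach. Over these fits the median log2 fold change of the 51 genes was -1.26 to -0.52. Scaling by spike-in totals gave 4 lower, beside 95 of all genes.

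**Figure D2:**
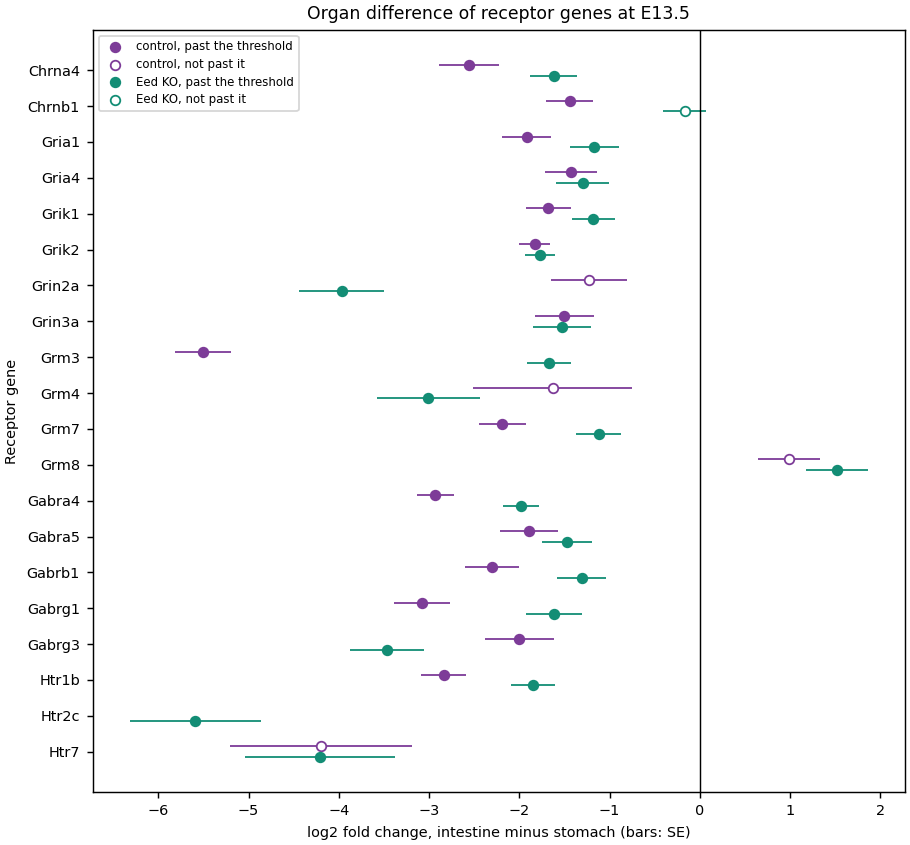
Log2 fold change, intestine minus stomach, of 20 receptor genes that passed in either genotype, 1 row per gene, with bars for the SE, purple for controls and green for *Eed* KO, and filled points for values past the threshold. All rows but *Grm8* lie left of 0, and *Grm3* moves from -5.51 in controls to -1.67 in the *Eed* KO. No point is drawn where a group had no counts.

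Receptor genes changed in both directions in the *Eed* KO stomach and rose in the intestine. Of the 51 genes 7 rose in the stomach (13.7%), against 4.84% of all genes, and 4 fell (7.84%), against 0.808% of all genes. In the intestine 6 rose (11.8%), against 2.38%, and 0 fell, against 0.228%. DESeq2 called 11 higher and 4 lower in the stomach, beside 902 and 164 of all 16218 genes. In the intestine it called 10 higher and 0 lower, beside 628 and 57. At an unadjusted p under 0.05 there were 26 in the stomach, against 22.6% of all genes, and 24 in the intestine, against 14%. With 1 spike-in factor removed by RUVg, the kind of correction the study used, 1 gene rose and 1 fell in the stomach and 5 rose in the intestine. Of all genes, 267 rose and 142 fell in the stomach and 180 rose in the intestine. Of the receptor genes called in the stomach *Chrm3* alone kept its call. The factor was 0.188 to 0.410 in the control and -0.0412 to -0.538 in the *Eed* KO libraries, so it was not separate from genotype. A fit with a replicate block gave 14 rises in the stomach and 11 in the intestine, beside 1194 and 762 of all 16218 genes. Medians of the log2 fold change were 0.37 in the stomach and 0.69 in the intestine, where the median of all genes was 0.00 and 0.01. Without either control library of the intestine 0 genes rose there. Without replicate 2 of the *Eed* KO stomach or either control library of the stomach 2 rose there, and 2 to 3 fell with any 1 stomach library left out. Each control library entered the organ comparison too, so these comparisons share control libraries.

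Genes that rose in both organs were *Chrna4*, *Chrm4* and *Grin2d*. *Chrna4* went from 3.22 and 2.40 CPM in the control stomach to 11.3 and 14.7 in the *Eed* KO stomach (2.21 ± 0.27, adjusted p = 0.0039) and in the intestine from 0.534 and 0.404 to 3.40 and 5.08 CPM (3.15 ± 0.33, adjusted p = 0.0047). The *Eed* KO intestine thereby stood above both control stomach libraries in *Chrna4*. *Chrm4*, a muscarinic receptor of the forebrain coupled to inhibitory G proteins, had 8 and 16 counts in the control stomach and 57 and 68 in the *Eed* KO stomach (2.38 ± 0.41). In the intestine it had 16 and 6 in controls and 69 and 65 in the *Eed* KO (2.46 ± 0.41, adjusted p = 0.026), and did not pass there without any 1 of these libraries (adjusted p = 0.061 to 0.13). *Grin2d*, an NMDA subunit of the embryonic brain, was at 5.65 and 5.45 CPM in the control stomach and 10.9 and 14.2 in the *Eed* KO stomach (1.18 ± 0.18). In the intestine it was at 2.89 and 2.66 CPM in controls and 7.88 and 9.47 in the *Eed* KO (1.64 ± 0.19). For none of the 3 genes did the genotypes overlap.

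Promoters of the 3 genes that rose in both organs are shown because PRC2 is known to bind at stretches dense in CpG, the dinucleotide that DNA methylation targets. Each sequence is the 250 bases before the RefSeq gene start (GRCm38.p6), 5′ to 3′ on the strand of the gene, with each CpG in capitals. *Chrna4* (chr2:181039178-181039427, minus strand) had 24 CpG, *Chrm4* (chr2:91921939-91922188, plus strand) 26 and *Grin2d* (chr7:45866682-45866931, minus strand) 9. These starts lie apart from those of the GENCODE vM4 models that were counted, downstream for *Chrna4* and *Grin2d* and upstream for *Chrm4*.
Chrna4: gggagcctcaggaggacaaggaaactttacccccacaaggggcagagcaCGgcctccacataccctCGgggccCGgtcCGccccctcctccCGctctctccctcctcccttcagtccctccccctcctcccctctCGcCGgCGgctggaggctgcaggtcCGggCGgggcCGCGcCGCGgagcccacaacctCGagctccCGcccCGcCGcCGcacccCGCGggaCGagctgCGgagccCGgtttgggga
Chrm4: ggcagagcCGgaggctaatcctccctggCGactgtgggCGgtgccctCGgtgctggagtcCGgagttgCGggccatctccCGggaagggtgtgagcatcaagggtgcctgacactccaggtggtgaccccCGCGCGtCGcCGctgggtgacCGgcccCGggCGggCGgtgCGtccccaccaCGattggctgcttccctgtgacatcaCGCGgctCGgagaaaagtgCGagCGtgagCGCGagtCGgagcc
Grin2d: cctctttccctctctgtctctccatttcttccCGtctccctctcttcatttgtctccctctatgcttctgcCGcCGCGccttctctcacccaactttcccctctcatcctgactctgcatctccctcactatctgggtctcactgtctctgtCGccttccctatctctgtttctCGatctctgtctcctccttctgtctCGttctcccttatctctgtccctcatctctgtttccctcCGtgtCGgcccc

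Against these, the median over all 32851 RefSeq promoter windows was 6 CpG, and 37.8% held 10 or more. A CpG is the letters CG, which read the same on both strands, and 92.1% of all windows held at least 1. Of the receptor genes 58 had a RefSeq window, 68 windows in all, with a median of 8 CpG and 39.7% with 10 or more. The 10 windows of the 9 genes that rose in either organ and had one held from 5 to 26 CpG, 60.0% of them 10 or more, and the 6 windows of the 4 genes that fell in the stomach from 1 to 10 CpG, 16.7% of them 10 or more. These counts are descriptions of few windows and were not tested.

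The other 4 genes that rose in the *Eed* KO stomach did not pass in the intestine. *Htr2c* had 0 and 4 counts in the control stomach and 80 and 79 in the *Eed* KO stomach (5.24 ± 0.70, adjusted p = 0.0087), or 2.15 and 2.17 CPM, and 0 and 0 in the control against 1 and 2 in the *Eed* KO intestine. *Grin2c*, an NMDA subunit of the cerebellum, had 2 and 2 counts in the control stomach and 39 and 90 in the *Eed* KO stomach (4.93 ± 0.82), and 3 and 0 against 15 and 6 in the intestine. *Grm4* went from 5 and 6 to 22 and 53 counts (2.75 ± 0.55) and *Htr1d*, an inhibitory serotonin receptor, from 9 and 12 to 31 and 54 (2.01 ± 0.48, adjusted p = 0.045). The difference of the response between organs did not pass for any of the 4. *Htr2c* lies on chromosome X, and the *Eed* KO replicates differ from each other and from the controls in Y-linked and *Xist* counts. The part of this difference in the result was not tested.

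*Htr2c* and *Grin2c* had the 2 largest rises, and their promoters are shown beside those above since they differ in CpG, with 5 in *Htr2c* (chrX:146962263-146962512, plus strand) and 15 in *Grin2c* (chr11:115267244-115267493, minus strand).
Htr2c: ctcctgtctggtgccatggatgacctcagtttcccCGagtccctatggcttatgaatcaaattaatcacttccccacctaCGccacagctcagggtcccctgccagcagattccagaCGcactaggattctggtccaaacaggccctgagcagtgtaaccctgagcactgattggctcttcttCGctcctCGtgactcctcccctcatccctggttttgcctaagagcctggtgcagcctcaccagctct
Grin2c: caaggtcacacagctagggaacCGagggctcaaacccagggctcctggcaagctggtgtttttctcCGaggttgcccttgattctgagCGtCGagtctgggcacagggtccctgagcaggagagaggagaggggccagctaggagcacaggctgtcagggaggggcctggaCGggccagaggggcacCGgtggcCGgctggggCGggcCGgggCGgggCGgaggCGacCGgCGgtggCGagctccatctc

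Receptor genes that fell in the *Eed* KO stomach were *Gabrg1*, *Chrm3*, *Gabrb2* and *Grm3*. *Gabrg1* went from 6.46 and 4.26 to 1.72 and 1.56 CPM (-1.70 ± 0.28), *Gabrb2*, a beta subunit of the GABA-A receptor, from 17.3 and 19.8 to 8.39 and 6.47 CPM (-1.32 ± 0.17) and *Chrm3* from 32.7 and 30.3 to 11.5 and 13.51 CPM (-1.33 ± 0.12, adjusted p = 0.0012). *Gabrg1* and *Grm3* were among the 16 genes that were higher in the control stomach than in the control intestine. With scaling by spike-in totals the all-gene median was 2.39 for stomach and 1.85 for intestine. There 45 and 42 receptor genes rose, beside 15419 and 13664 of all 16218 genes, and 0 fell. These 4 genes turned to 1.11 (*Chrm3*), 0.99 (*Gabrb2*), 0.67 (*Gabrg1*) and 1.30 (*Grm3*) in the stomach, all below its all-gene median. *Eed* itself turned to 0.14 under that scaling, also below it.

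The other genes that rose in the *Eed* KO intestine were *Grm3*, *Gabra2* and *Gabra4*. *Gabra2*, an alpha subunit, went from 0.674 and 0.740 to 2.40 and 3.48 CPM (2.05 ± 0.39, adjusted p = 0.039), and in the stomach it was at 1.39 and 0.663 CPM in controls and 2.41 and 3.02 in the *Eed* KO (1.41 ± 0.38, adjusted p = 0.066). *Gabra4* went from 2.56 and 3.50 to 7.96 and 5.76 CPM (1.19 ± 0.21), beside 23.5 and 22.5 CPM in the control stomach.

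*Grm3* and *Chrm3* were the 2 receptor genes whose response to loss of *Eed* differed between organs (adjusted p under 0.2 and a log2 difference above 1 in size, the interaction threshold), which is 3.92% of the 51, against 0.191% of all genes with a higher response in the intestine. No receptor gene passed with a higher response in the stomach, against 0.271% of all genes, with 13 of the 51 at an unadjusted p under 0.05, against 5.88% of all genes. DESeq2 gave the same counts of 2 and 0, beside 99 and 108 of all 16218 genes. A fit with a replicate block gave 5 and 1, beside 171 and 179 of all genes. *Grm3* fell in the stomach, from 6.23 and 8.003 to 2.84 and 3.62 CPM (-1.14 ± 0.22, adjusted p = 0.023, and 0.060 to 0.15 without any 1 of these libraries; 1.30 with spike-in totals), and rose in the intestine, from 0.168 and 0.135 to 1.00 and 1.03 CPM (2.70 ± 0.34, adjusted p = 0.0097). The response of the intestine minus that of the stomach was 3.84 ± 0.41 (adjusted p = 0.031). *Chrm3* fell in the stomach, though not with spike-in totals, and was at 22.3 and 22.4 CPM in the control and 19.3 and 19.1 in the mutant intestine (-0.22 ± 0.12, adjusted p = 0.51), a difference between organs of 1.12 ± 0.17 (adjusted p = 0.073). *Chrm3* did not pass without replicate 1 of the *Eed* KO stomach or without any control library, whereas *Grm3* passed without each library in turn. With spike-in totals neither passed, at 3.22 ± 1.25 for *Grm3* and 0.52 ± 1.07 for *Chrm3* (adjusted p = 0.93 for both). The 7 smooth muscle markers summed to 2921 and 3034 CPM in the control and 1883 and 2143 in the *Eed* KO stomach. In the intestine they summed to 4141 and 2823 CPM in controls and 3320 and 5668 in the *Eed* KO, and their part in the result was not tested.

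The promoters of *Grm3* (chr5:9725353-9725602, minus strand) and *Chrm3* (chr13:10360804-10361053, minus strand) are shown as those of the genes with organ-dependent responses, and had 8 and 10 CpG.
Grm3: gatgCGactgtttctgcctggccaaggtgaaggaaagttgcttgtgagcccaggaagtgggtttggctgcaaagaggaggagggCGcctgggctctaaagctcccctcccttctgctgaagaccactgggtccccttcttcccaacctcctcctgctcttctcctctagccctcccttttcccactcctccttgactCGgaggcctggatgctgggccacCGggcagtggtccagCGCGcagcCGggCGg
Chrm3: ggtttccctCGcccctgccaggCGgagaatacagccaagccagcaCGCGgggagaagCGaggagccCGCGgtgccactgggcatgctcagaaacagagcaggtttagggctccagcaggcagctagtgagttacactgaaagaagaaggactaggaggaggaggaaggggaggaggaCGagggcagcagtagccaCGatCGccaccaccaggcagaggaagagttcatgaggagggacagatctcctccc

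**Figure D3:**
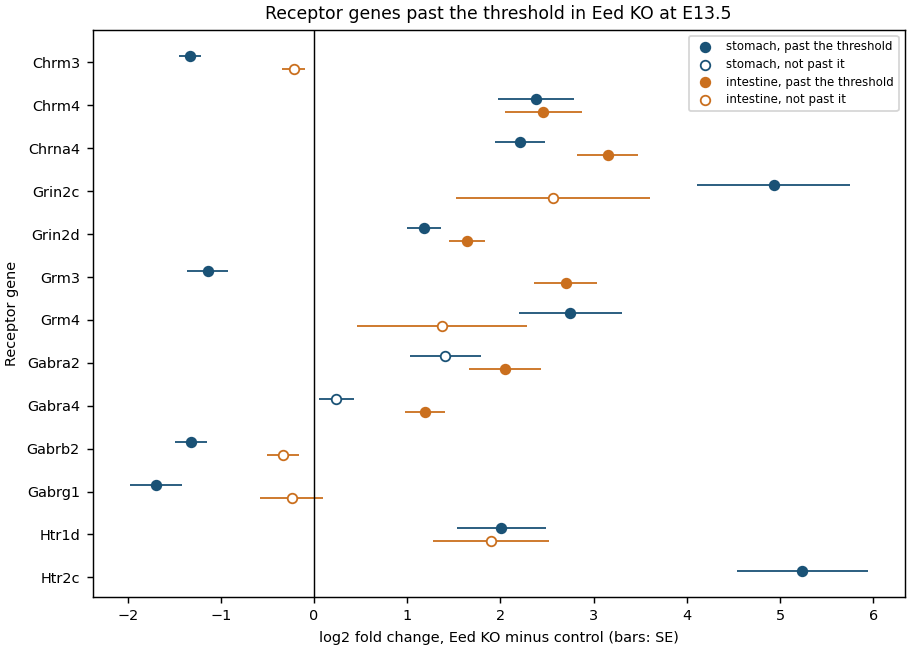
Log2 fold change, *Eed* KO minus control, of the 13 receptor genes past the threshold in either organ, with bars for the SE, blue for stomach and orange for intestine, and filled points for values past the threshold. *Chrm4*, *Chrna4* and *Grin2d* are filled on the right in both organs, and *Grm3* lies left of 0 in the stomach and right of it in the intestine.

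**Figure D4:**
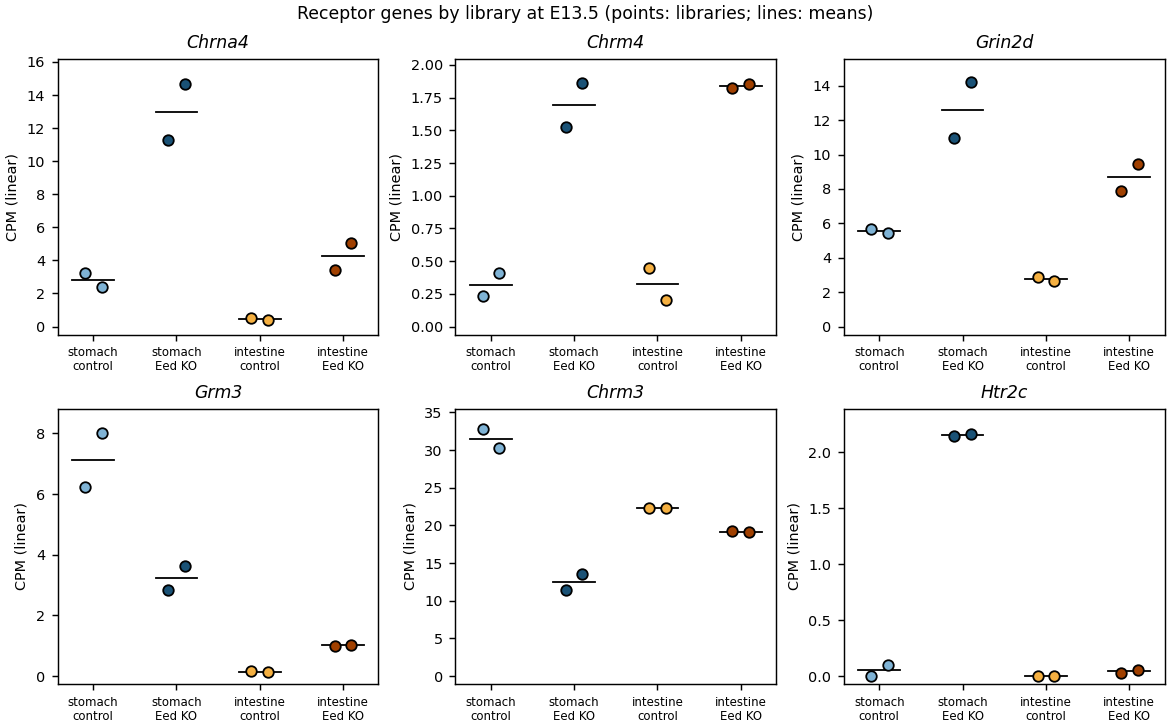
CPM of 6 receptor genes in the 8 embryonic libraries, on a linear axis, with a point for each library and a line for the mean of each group. *Grm3* falls in the stomach and rises in the intestine of the *Eed* KO, and *Htr2c* is near 0 outside the *Eed* KO stomach.

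Neural markers also moved in the *Eed* KO. Of 14 tested enteric neural markers 2 rose in the stomach, *Stmn2* (3.15 ± 0.33) and *S100b* (2.24 ± 0.35), and 1 in the intestine, *Stmn2* (3.73 ± 0.36). The list summed to 126 and 144 CPM in the *Eed* KO against 91.3 and 94.1 in the control stomach. For intestine the sums were 137 and 194 CPM in the *Eed* KO against 216 and 205 in controls. *Ednrb* alone gave 201 and 188 CPM of these control sums. The median log2 fold change of the 14 markers, *Eed* KO minus control, came to 0.89 for intestine and 0.44 for stomach. The intestinal sum and median thus moved in opposite directions. Endothelial markers rose, *Cdh5*, *Pecam1* and *Tie1* in the stomach (3.70 ± 0.40, 2.77 ± 0.42 and 2.17 ± 0.49) and *Cdh5* and *Tie1* in the intestine (2.80 ± 0.35 and 2.48 ± 0.45), and *Myod1* rose in the stomach (2.76 ± 0.40). The part of these cells in the receptor changes was not tested. Of the partner lists, the vesicular glutamate transporter *Slc17a7* rose in both organs (3.29 ± 0.40 in the stomach and 2.23 ± 0.41 in the intestine), as did the nicotinic receptor chaperone *Ric3* (1.53 ± 0.15 and 1.13 ± 0.15). The cholinesterase *Ache* and the nicotinic modulator *Lynx1* rose in the stomach (1.51 ± 0.35 and 1.96 ± 0.36) and *Homer2* in the intestine (1.13 ± 0.17). *Gad1* and *Gad2*, which make GABA, had no counts in either control organ.

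Accessible chromatin was found at most receptor gene starts. Within 1000 bp of the GENCODE vM4 start, 63 of the 79 genes had a peak in the control stomach, 63 in the *Eed* KO stomach, 59 in the control intestine and 64 in the *Eed* KO intestine, which is 74.7% to 81.0%. Of the 51 genes tested for expression 45 to 48 had one, and of the 28 that were too low to test 14 to 16 did, beside 87.8% to 88.9% of all 16218 genes tested. A peak stood at the start of 58 genes in all 4 lists and of 12 in none, among them *Grik5*, the highest kainate gene. With 1 list for each condition, made from pooled replicates, the values have no replicate error and were not tested. *Htr2c* had a peak at its start in all 4 lists, with a fold enrichment over background of 4.55 in the control and 5.25 in the *Eed* KO stomach and of 4.59 and 4.91 in the intestine, where its RNA was at 0 to 2 counts. *Grm3* had 6.16 and 5.89 in the stomach and 5.66 and 6.15 in the intestine, in the control and *Eed* KO in that order. At the RefSeq starts, *Chrna4* had 4.83 and 4.30 in the stomach and 5.31 and 4.57 in the intestine, *Chrm4* 3.90 and 3.95 in the stomach and 4.29 and 3.88 in the intestine, and *Grin2d* 5.87 and 5.07 in the stomach and 7.52 and 6.33 in the intestine. At the vM4 starts these 3 genes had a peak in 3, 1 and 1 of the 4 lists. With RefSeq starts all 13 genes called in the *Eed* KO of either organ had a peak in all 4 lists, as did 48 of the 51 receptor genes tested. With vM4 starts 10 of the 13 did, beside 45 of the 51.

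*Gabra3* was the most counted receptor gene of the adult controls. Of the 79 genes 10 passed the filter, and the other 69 had at most 24 counts in any adult library (*Gabrq*). *Gabra3*, a GABA-A alpha subunit (chrX:72432681-72656848, minus strand), had 4285 and 4557 counts in the controls, or 313 and 319 CPM, and held 68.3% of their receptor counts. In the libraries labelled *Eed* KO it had 72 and 81 counts, or 7.21 and 6.25 CPM, a log2 fold change of -5.55 ± 0.23 (adjusted p = 0.00012). The summed level of all receptor genes was thereby 473 and 453 CPM in the controls and 76.9 and 70.1 in the libraries labelled *Eed* KO. No other GABA-A subunit was above 1.90 CPM in a control library.

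In all, 4 of the 10 genes were lower in the libraries labelled *Eed* KO (40.0%), against 7.23% of 15039 genes tested, and 1 was higher (10.0%), against 12.3%. The median log2 fold change was -0.71 over the 10 and 0.00 over all. *Chrnb1* went from 51.0 and 42.1 to 8.41 and 11.5 CPM (-2.22 ± 0.26, adjusted p = 0.0015), *Gria4* from 20.4 and 17.9 to 5.51 and 3.78 CPM (-2.05 ± 0.32) and *Gria3* from 69.7 and 59.8 to 33.7 and 19.0 CPM (-1.30 ± 0.29). *Grik3*, a kainate subunit, went from 1.39 and 1.89 to 6.31 and 5.71 CPM (1.87 ± 0.48, adjusted p = 0.031), and it did not pass without any 1 of the 4 libraries, or with either spike-in correction. The gene *Ftl2* lies inside *Grik3* on the same strand, with 1127 counts in the adult libraries against 183 for *Grik3*. *Gabrb1*, *Chrm3*, *Gabra4*, *Chrm1* and *Htr1f* did not pass.

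Cell type markers moved with the adult labels. Leukocyte markers summed to 104 and 119 CPM in the controls and 2172 and 1915 in the libraries labelled *Eed* KO, led by *Csf1r* (4.99 ± 0.40) and *Ptprc* (4.04 ± 0.22), with *Cd79a* lower (-1.23 ± 0.32). Pericyte markers summed to 13460 and 11550 CPM in the controls and 4473 and 3221 in the libraries labelled *Eed* KO, with *Rgs5*, *Kcnj8* and *Abcc9* lower (-1.73 ± 0.24, -1.71 ± 0.21 and -1.11 ± 0.24). Mesenchyme markers summed to 8705 and 9048 against 3637 and 2531 CPM, with *Pdgfra*, *Col1a1* and *Col3a1* lower (-1.79 ± 0.22, -1.65 ± 0.29 and -1.60 ± 0.25). *Myh11*, *Actg2* and *Cnn1* of smooth muscle, *Pecam1* of endothelium and the neuronal genes *Snap25* and *Elavl4* were higher, and *Ednrb* lower. The part of cell composition in the receptor differences was not tested. Of the partner lists *Slc1a2*, *Glul* and *Ddc* were higher (4.16 ± 0.63, 1.18 ± 0.27 and 1.65 ± 0.47) and *Slc6a11*, *Slc1a3*, *Glrb*, *Nlgn2* and *Lynx1* lower (-4.95 ± 1.02, -1.48 ± 0.21, -1.59 ± 0.31, -1.72 ± 0.39 and -1.63 ± 0.25).

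**Figure D5:**
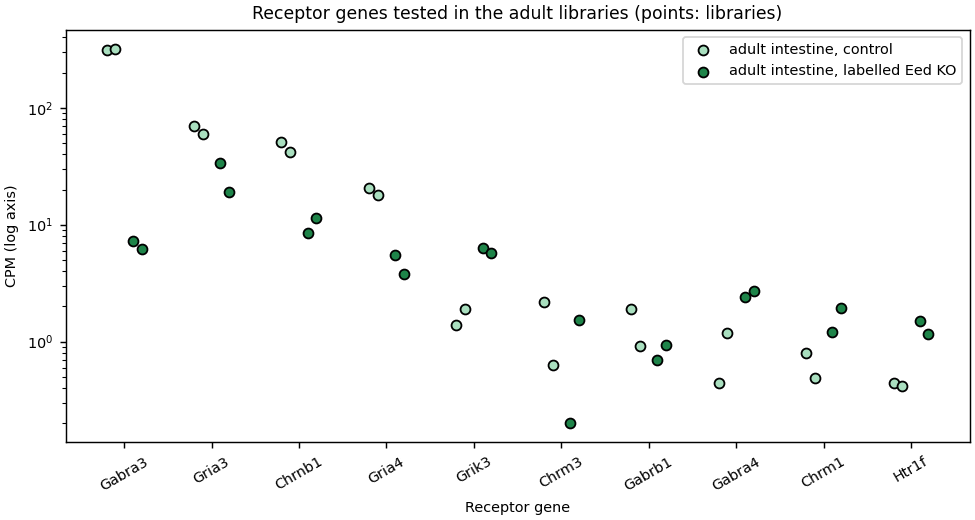
CPM of the 10 receptor genes tested in the adult libraries, on a log axis, with a point for each of the 2 control libraries (light) and 2 libraries labelled *Eed* KO (dark). *Gabra3* goes from 313 and 319 CPM to 7.21 and 6.25, and *Grik3* is higher in the libraries labelled *Eed* KO.

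*Gabra3* was at a lower and more even level in the embryo. It stood at 9.04 and 8.18 CPM in the control stomach, 14.2 and 16.3 in the mutant stomach, 9.83 and 8.81 in the control intestine, with the mutant intestine at 15.5 and 14.5, and its log2 fold changes of 0.83 ± 0.14 and 0.69 ± 0.14 were under the size asked (adjusted p = 0.014 and 0.046).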

How the data were processed

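RNA-seq libraries came from sorted GFP+ cells, stranded poly(A) libraries for the embryo and a low-input unstranded kit for the adult. Per the study's methods and the submitters' processing notes, the authors trimmed reads with Trimmomatic 0.32, aligned them to GRCm38/mm10 with STAR 2.5.1b and counted them on GENCODE vM4 with featureCounts, whose version differs between the sources used here. The authors deposited whole-number counts per gene symbol, not normalized, with 99 spike-in rows. For ATAC-seq, the authors pooled replicates and called broad peaks with MACS2 2.1.2. The deposited peak lists give a fold enrichment, a ratio over background, and a −log10 q-value for each peak. The gene lengths that the authors deposited with the adult counts gave TPM.

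Counts were tested with edgeR 4.0.16 (R 4.3.3; TMM, filterByExpr, quasi-likelihood F-test, Benjamini-Hochberg adjustment over all genes tested), in 1 fit of the 8 embryonic libraries with 4 group means and 1 of the 4 adult libraries. Thresholds were an adjusted p of 0.05 and a log2 fold change of 1, and for the interaction an adjusted p of 0.2. With 2 libraries a group, the smallest two-sided p of an exact permutation test is 0.333. An SE is the log2 fold change over the square root of F. Where the methods do not say that libraries came from separate animals, p-values measure only the spread between these libraries. A peak within 1000 bp of a gene start counted as at the start. Sequences are from RefSeq (GRCm38.p6), which had windows for 58 of the 79 genes. The procedure was run on simulated counts, drawn for each library independently and called at a smaller log2 fold change than here. It therefore gives no error rate for these calls.

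Genes, lists and tests were chosen with earlier results of these data known. Named genes are all receptor genes past the threshold in a comparison, the 2 highest by TPM of each family and group, *Eed*, and up to 4 genes past the threshold per list and comparison. Alternatives were other size factors, spike-in totals, 1 RUVg factor, DESeq2 1.42.0, no filter, a replicate block and leaving out each library; for detection a minimum of 1 TPM or 0.5 CPM, and for peaks a 5000 bp window, a −log10 q of 5, starts inside a peak and, added after seeing the data, RefSeq starts. Some genes that the rule names are counted but not reported here by name.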

Additional observations from a re-analysis of the deposited data

Results flagged for a closer look

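*Grm3* and *Chrm3* are listed here because their response to loss of *Eed* differed between the embryonic organs in a test of that difference. The response of the intestine minus that of the stomach was 3.84 on the log2 scale for *Grm3* and 1.12 for *Chrm3*. *Chrnb1*, *Gabra3* and *Gria3* are listed for opposite directions. In the adult intestine both libraries labelled *Eed* KO were below both controls, and in the embryonic intestine both *Eed* KO libraries were above both controls. The share of all genes with this pattern was not counted, and 2 against 2 libraries give a permutation p of 0.333 at best. *Gabra3* and *Gria3* lie on chromosome X, and the embryonic *Eed* KO and control libraries differ in Y-linked and *Xist* counts. The part of that difference was not tested. For *Chrnb1* the log2 fold change was -2.22 in the adult and 1.17 in the embryo. For *Gabra3* it was -5.55 in the adult and 0.69 in the embryo. For *Gria3* it was -1.30 in the adult and 0.37 in the embryo. The difference between adult and embryo was not tested, since age, Cre driver and library kit differ together. None of the 3 passed the threshold in the embryonic intestine (adjusted p = 0.064 for *Chrnb1*, 0.046 with a change under the size asked for *Gabra3*, and 0.20 for *Gria3*).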

How the results depend on the processing

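Of the 60 changes of receptor genes past the threshold, all kept their direction and threshold with DESeq2, DESeq2 size factors or no filter, 46 with 1 RUVg factor (14 lost the call), and 22 with spike-in totals, where 34 lost it and 4 reversed (*Chrm3* 1.11, *Gabrb2* 0.99, *Gabrg1* 0.67, *Grm3* 1.30 in the stomach), as did *Eed* there (0.14). Spike-in totals moved the median of all genes by 0.30, 2.39, 1.85, -0.24, -0.53 and -0.42 in the control organs, *Eed* KO stomach, *Eed* KO intestine, *Eed* KO organs, interaction and adult, and gave 1, 45 and 42 genes lower in the control intestine and higher in the *Eed* KO stomach and intestine, 0 lower in the *Eed* KO stomach, 4 lower and 0 higher in the *Eed* KO intestine against stomach, and 0 in the interaction and 0 higher in the adult. RUVg gave 1 higher and 1 lower in the *Eed* KO stomach and 0 higher in the adult. DESeq2 gave 11 and 10 higher in the *Eed* KO stomach and intestine, beside 902 and 628 of all genes. No filter gave 13 and 12 there, beside 1070 and 734 of 25364, and in the adult 3, beside 2289 of 25231. Leaving out 1 library gave 9 to 12 lower in the control intestine. It gave 2 to 6 higher and 2 to 3 lower in the *Eed* KO stomach, and 0 to 5 higher in the *Eed* KO intestine. It gave 7 to 12 lower and 0 to 1 higher between the *Eed* KO organs, 1 to 2 in the interaction, and 0 higher in the adult. The cause was not tested. Same-numbered libraries deviated together with a correlation of 0.748 between the *Eed* KO organs, 0.370 between the control organs, 0.138 to 0.282 between other groups and -0.0823 in the adult. In the study's methods the stomach and intestine of each animal were separated. Y-linked counts matched by number between the *Eed* KO organs, so same-numbered libraries may share embryos. With 2 pairs the labels do not show that numbers pair the libraries, and the main fit did not pair them. The replicate block gave 14 and 11 higher in the *Eed* KO stomach and intestine, beside 1194 and 762 of all 16218 genes. It gave 1 higher and 19 lower in the control intestine against stomach, beside 372 and 751 of all genes. Between the *Eed* KO organs it gave 1 higher and 23 lower, beside 357 and 774. In the interaction it gave 5 higher and 1 lower, beside 171 and 179, and in the adult 0 higher, beside 1780 of 15039. Of the 60 changes, 1 lost its call. Detection in the adult was 5 genes at 1 TPM and 14 at 0.5 CPM in the controls, and 20 at 0.5 CPM in the libraries labelled *Eed* KO, where it was 10 to 14 with 1 library left out. Peak counts stayed within 1.5 times under each alternative.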
